A study of Mus musculus with 3 samples.

Results

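Genes that are switched on by FGF-ERK signalling and feed back on it were examined across the germ layers of the E7.5 mouse embryo. They are 10 genes chosen by symbol, out of 17633 genes with a read in any library: the Sprouty genes *Spry1*, *Spry2* and *Spry4*, the Spred genes *Spred1* and *Spred2*, the phosphatase genes *Dusp4* and *Dusp6*, the ETS genes *Etv4* and *Etv5*, and *Il17rd*. All 10 had reads in all 3 libraries and RPKM>5 in at least 1 of them, and 7 had RPKM>5 in all 3. RNA came from dissected endoderm, mesoderm and epiblast of ICR embryos at embryonic day 7.5, with no treatment or mutation named, and each layer was pooled over many embryos into 1 library. The epiblast sample holds neuroectoderm and primitive streak, and extra-embryonic regions were cut away before the layers were parted. As there was 1 library per germ layer, no difference given here has a replicate check.

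FGF ligands bind receptor tyrosine kinases, which act through Ras, Raf and MEK to phosphorylate ERK. Active ERK enters the nucleus and phosphorylates ETS factors, and the genes they switch on include inhibitors of the same cascade, so that RNA of Sprouty, Spred, Dusp and Sef genes is widely read as a report of FGF-ERK activity. In the gastrulating mouse embryo, FGF signals from the primitive streak are needed for mesoderm cells to leave the streak and be specified. RNA levels alone were measured, and neither ERK phosphorylation nor protein was.

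The reads counted on genes summed to between 40.8 M and 42.7 M per library (1 M is 1000000 reads), and the 10 genes had from 222 to 9018 reads each, spread over 84.7% to 99.9% of their lengths. RPKM is the read count per kilobase of gene length and per M reads counted on genes, which adjusts for gene length and library depth. Comparisons between libraries also depend on their scaling. Other scalings shifted the log2 ratios of endoderm to the other layers by 0.11, or by -0.07 and -0.13, and changed some calls. Intervals printed after a value are exact 95% intervals of read counting, and they cover counting error only. The labelled layers were checked against markers, and each layer marker had its highest RPKM in its own library. *Sox17* and *Foxa2* had summed RPKM of 83.4, 2.39 and 2.90 in the endoderm, mesoderm and epiblast libraries, *Foxf1* (listed as *Foxf1a*) and *Kdr* of 0.634, 74.0 and 2.49, and *Sox2* and *Pax6* of 0.631, 1.39 and 43.4, nearly all of it from *Sox2*. The endoderm library was rich in visceral endoderm RNA: all 6 markers of those cells (*Afp*, *Ttr*, *Apoa1*, *Amn*, *Cubn* and *Rhox5*) were called higher there than in both other layers, with a summed RPKM of 4983 against 7.36 in mesoderm and 4.81 in epiblast. Of 8 markers of extra-embryonic ectoderm and trophoblast, 6 had reads, with summed RPKM of 45.9, 28.5 and 39.7 in endoderm, mesoderm and epiblast. *Tpbpa* and *Prl3d1* had 0 reads in all 3 libraries, and *Cdx2*, which streak cells also express, had 18.4, 20.9 and 37.1. *Elf5* (0.108, 0.133 and 0.328) and *Ascl2* (0.268, 1.12 and 1.63) were highest in epiblast and were not called. *Plac1* (19.9, 6.25 and 0.569) and *Esx1* (7.11, 0.0606 and 0.130) were called higher in endoderm than in both other layers. Of 6 primitive erythroid markers, 3 had reads, their summed RPKM was 3.39, 4.44 and 0.905, and of the globin genes *Hba-x* and *Hbb-y* had 0 reads, while *Hbb-bh1* had 37 reads in mesoderm and 0 in the other layers. Of 4 primitive streak genes (*T*, *Mixl1*, *Fgf8* and *Eomes*) 3 were called higher in epiblast than in endoderm and 3 higher than in mesoderm, with sums of 106.9, 99.9 and 275.3. What part these cell types have in the differences below was not tested, and in bulk tissue fewer expressing cells cannot be told apart from less RNA per cell.

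*Spry1* and *Spry2* encode paralogous inhibitors, of which the former was highest and the latter lowest in endoderm, and *Etv5* had the highest RPKM of the 10 genes, so the 250 bases before the annotated start of these genes are shown (RefSeq, build GRCm38.p6, 5′ to 3′ on the strand of the gene). The windows are chr3:37639697-37639946 (plus strand) for *Spry1*, chr14:105896820-105897069 (minus strand) for *Spry2* and chr16:22439571-22439820 (minus strand) for the upstream of the 2 annotated starts of *Etv5*. Capitals would mark a searched motif, and none lies in these windows.
Spry1: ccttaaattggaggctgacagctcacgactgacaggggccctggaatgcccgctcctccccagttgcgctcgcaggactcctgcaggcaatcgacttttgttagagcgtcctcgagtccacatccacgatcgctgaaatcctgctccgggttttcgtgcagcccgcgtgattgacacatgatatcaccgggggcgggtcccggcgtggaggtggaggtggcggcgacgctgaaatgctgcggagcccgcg
Spry2: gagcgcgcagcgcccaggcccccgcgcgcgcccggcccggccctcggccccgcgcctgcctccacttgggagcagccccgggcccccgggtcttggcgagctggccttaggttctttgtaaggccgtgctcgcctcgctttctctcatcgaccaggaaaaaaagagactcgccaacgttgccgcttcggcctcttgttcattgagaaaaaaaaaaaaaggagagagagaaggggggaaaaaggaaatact
Etv5: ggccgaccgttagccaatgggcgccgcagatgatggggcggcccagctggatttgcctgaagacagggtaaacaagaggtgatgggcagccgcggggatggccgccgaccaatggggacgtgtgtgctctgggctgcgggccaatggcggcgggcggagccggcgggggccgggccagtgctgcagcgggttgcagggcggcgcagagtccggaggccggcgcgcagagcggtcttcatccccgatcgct
Which promoters to print and which motifs to count was decided after levels and some matches had been seen, so the counts are descriptions. Motifs were searched on both strands in windows of 300 bases, 250 before and 50 after each start: the ETS motif CCGGAA, the AP-1 motif TGANTCA, the core TGACG of the cyclic AMP response element (CRE), the GATA motif AGATAA and the TATA box TATAAA. Of the 10 genes, 7 (all but *Spry4*, *Dusp4* and *Etv4*) had a window in the RefSeq table, with 8 windows in all. The ETS motif was in 1 of the 8 windows, that of *Spry2*, and in 14.9% of 32851 windows of all genes. It lies 34 to 39 bases after the start, in a stretch of 30 bases at chr14:105896770-105896799 on the minus strand, with the motif in capitals.
Spry2 after the start: gaggtcatctatcCCGGAAtccgggagggt
The CRE core was in 1 of the 8 windows, that of *Spred2*, against 20.8% of all windows. AP-1, GATA and TATA motifs were in 0 of the 8 windows and in 7.81%, 11.2% and 13.6% of all windows. A motif match is a description of these letters and not a site of binding, and the gene table does not say which start was used.

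Among the 10 genes, 6 had their highest RPKM in endoderm, 4 in epiblast and 0 in mesoderm, while 6 had their lowest in mesoderm. Of the 9069 genes with RPKM>5 in some library and more than 3 reads in each, 36.6% were highest in endoderm, 30.5% in mesoderm and 32.8% in epiblast. Summed over the 10 genes, RPKM was 215.7 (endoderm), 139.8 (mesoderm) and 174.1 (epiblast). The ratio of the highest to the lowest layer ran from 1.07 for *Spred1* to 5.38 for *Spry1*, with a median of 1.97, beside a median of 1.55 for those 9069 genes. When the libraries were rescaled by edgeR's TMM factors or by the median of ratios, which set most genes to no change, *Spred1*, which differed by 1.07-fold, joined the genes highest in endoderm and lowest in mesoderm.

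**Figure D1:**
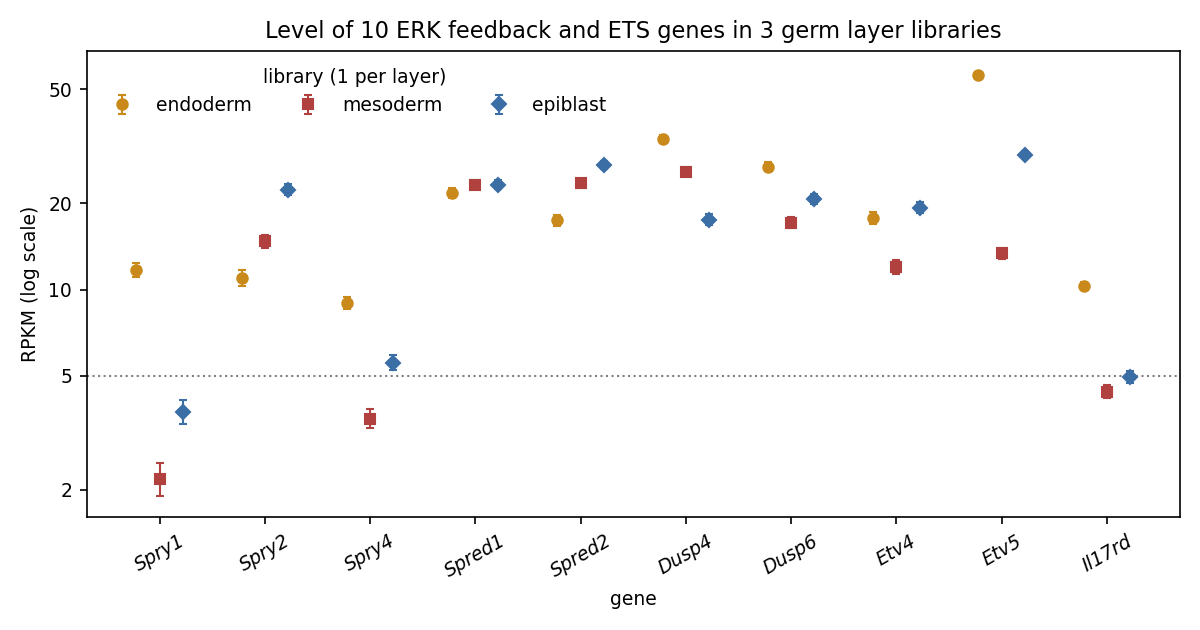
RPKM (log axis) of each of the 10 genes in the endoderm, mesoderm and epiblast libraries, 1 library per layer, with exact 95% Poisson intervals of the read counts as bars and RPKM 5 as a dotted line. *Spry1* ran from 11.7 in endoderm to 2.18 in mesoderm and *Etv5* from 56.3 to 13.4, whereas the points of *Spred1* lay between 21.7 and 23.2.

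Sprouty proteins are induced by receptor tyrosine kinases and block signalling between the receptor, Ras and Raf. *Spry1* (chromosome 3, 37639947 to 37644598, plus strand) had 1217 endoderm, 222 mesoderm and 398 epiblast reads, which are RPKM of 11.7, 2.18 and 3.74. Its RPKM was 5.38-fold (4.66 to 6.23) higher in endoderm than in mesoderm and 3.13-fold (2.80 to 3.52) higher than in epiblast. Both differences met the criteria for differential expression, which were those of the study: RPKM>5 in either library of a pair, Fold Change>2 and FDR<0.001, where the FDR comes from an exact test of read counts after Audic and Claverie. Such a call compares 2 libraries and not the layers as conditions. An antisense gene, *Gm42922*, overlaps exons of *Spry1* on the other strand in the annotation, and whether strand was used in counting is not given in the sources used here, so how many of these reads are its own is uncertain.

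*Spry2* (chromosome 14, 105891947 to 105896819, minus strand) had another order, with 964 endoderm, 1265 mesoderm and 2001 epiblast reads. Its RPKM was 11.005, 14.7 and 22.3, lowest where *Spry1* was highest. It was called in 1 pair, 2.02-fold (1.87 to 2.19) higher in epiblast than in endoderm, close to the Fold Change limit and with an interval that spans it. *Spry4* (chromosome 18, 38586247 to 38601415, minus strand) followed the order of *Spry1*, with 1724 endoderm, 667 mesoderm and 1093 epiblast reads and RPKM of 8.98, 3.54 and 5.55. It was 2.54-fold (2.32 to 2.78) higher in endoderm than in mesoderm and was called for that pair, while its 1.62-fold difference from epiblast was below the limit.

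The Sprouty genes together had nearly the same RPKM in endoderm (31.7) and epiblast (31.6) and less in mesoderm (20.4), but their make-up differed. In endoderm *Spry1*, *Spry2* and *Spry4* took 37.0%, 34.7% and 28.3% of the sum. In mesoderm and epiblast *Spry2* alone took 72.0% and 70.6%, and *Spry1* took 10.7% and 11.9%. The ratio of *Spry1* to *Spry2*, which no scaling of the libraries can alter and which was chosen after the levels were seen, was 1.07 (0.979 to 1.16) in endoderm, 0.148 (0.128 to 0.171) in mesoderm and 0.168 (0.150 to 0.187) in epiblast. Its interval in endoderm lies apart from both others, and those of mesoderm and epiblast overlap. *Spry4* to *Spry2* went the same way, at 0.816 (0.753 to 0.883), 0.240 (0.219 to 0.264) and 0.249 (0.231 to 0.268).

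**Figure D2:**
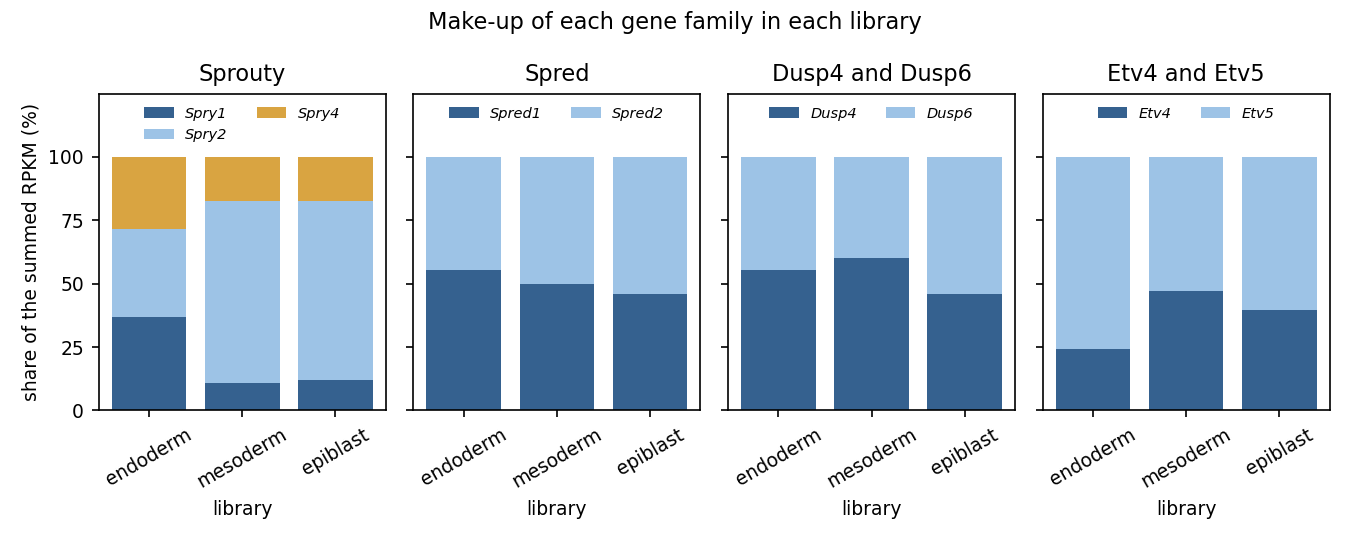
Share of each gene in the summed RPKM of its family (percent, stacked bars from 0 to 100) in the 3 libraries, for Sprouty, Spred, *Dusp4* with *Dusp6*, and *Etv4* with *Etv5*. *Spry2* took 34.7% of the Sprouty sum in endoderm but over 70% in the other layers, and *Etv5* took 76.0% of its family in endoderm.

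Spred proteins carry a domain related to that of Sprouty and bring neurofibromin to the membrane, where it lowers active Ras. *Spred1* (chromosome 2, 117121374 to 117182279, plus strand) had 2751, 2887 and 3020 reads in endoderm, mesoderm and epiblast and RPKM of 21.7, 23.2 and 23.2. Mesoderm and epiblast differed by 1.001-fold (0.9505 to 1.053), the only 1 of the 30 differences between layers whose counting interval included no difference. Endoderm was 1.07-fold lower than each of the others as deposited, but after scaling by TMM factors or the median of ratios its log2 ratio was 0.02 to mesoderm and 0.01 to epiblast, so no direction is given for it. Only 2.35% of the 9069 genes varied less over the layers than *Spred1*. *Spred2* (chromosome 11, 19924375 to 20024026, plus strand) had 2084, 2751 and 3340 reads and RPKM of 17.4, 23.4 and 27.2. Its order was that of *Spry2*, and its largest difference, 1.56-fold (1.48 to 1.65) between epiblast and endoderm, was below the Fold Change limit. The ratio of *Spred1* to *Spred2* went from 1.25 (1.18 to 1.32) in endoderm through 0.991 (0.940 to 1.04) in mesoderm to 0.854 (0.812 to 0.897) in epiblast.

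*Dusp4* and *Dusp6* encode dual-specificity phosphatases that remove the activating phosphates of ERK, *Dusp6* in the cytoplasm and *Dusp4* in the nucleus. *Dusp4* (chromosome 8, 34807297 to 34819894, plus strand) had 3394 endoderm, 2559 mesoderm and 1818 epiblast reads, with RPKM of 33.6, 25.8 and 17.5. It was the only gene of the 10 with a higher RPKM in mesoderm than in epiblast, by 1.47-fold (1.38 to 1.56). Endoderm exceeded epiblast by 1.91-fold (1.81 to 2.03), just under the limit. *Dusp6* (chromosome 10, 99263231 to 99267489, plus strand) had 3148, 1965 and 2484 reads and RPKM of 26.9, 17.1 and 20.7. Its largest difference was 1.57-fold (1.48 to 1.66), between endoderm and mesoderm, and neither phosphatase gene was called in any pair. *Dusp4* exceeded *Dusp6* in endoderm (ratio 1.25) and mesoderm (1.51, 1.42 to 1.60) but not in epiblast (0.849, 0.798 to 0.902).

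*Etv4* and *Etv5* encode PEA3-type ETS activators that are targets of FGF signalling and act on its target genes. *Etv5* (chromosome 16, 22381309 to 22439719, minus strand) had 9018 endoderm, 2103 mesoderm and 4855 epiblast reads, with RPKM of 56.3, 13.4 and 29.6, and every interval was apart from the others. It was called in 2 pairs, as 4.21-fold (4.01 to 4.41) higher in endoderm than in mesoderm and 2.21-fold (2.10 to 2.33) higher in epiblast than in mesoderm. Endoderm exceeded epiblast by 1.90-fold (1.84 to 1.97), below the limit. *Etv4* (chromosome 11, 101769742 to 101785371, minus strand) varied far less, with 1734, 1143 and 1925 reads and RPKM of 17.8, 12.0 and 19.3. Both genes were lowest in mesoderm, but *Etv4* was 1.08-fold (1.01 to 1.16) higher in epiblast than in endoderm, and it was called in no pair. With TMM factors or the median of ratios, the log2 ratio of *Etv4* in endoderm to epiblast was only -0.005. Its place among the genes highest in epiblast thus depends on the scaling used. The ratio of *Etv5* to *Etv4* was 3.16 (2.999 to 3.33) in endoderm, 1.12 (1.04 to 1.20) in mesoderm and 1.53 (1.45 to 1.61) in epiblast.

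*Il17rd* encodes Sef, a transmembrane protein that antagonizes FGF signalling. It lies on chromosome 14 from 27038941 to 27107286 on the plus strand and had 3529 endoderm, 1479 mesoderm and 1741 epiblast reads. Its RPKM was 10.3, 4.40 and 4.96. Endoderm was 2.34-fold (2.20 to 2.49) above mesoderm and 2.08-fold (1.96 to 2.20) above epiblast, and both pairs met the criteria. *Spry1* and *Il17rd* were the 2 genes called higher in endoderm than in both other layers. The interval of *Il17rd* against epiblast spans the Fold Change limit. That call was lost with libraries scaled to the same upper quartile or with a pseudocount of 1. With TMM factors or the median of ratios, *Etv5* was also called higher in endoderm than in both. Of all genes tested, 14.4% and 15.7% were called higher in endoderm than in mesoderm and in epiblast.

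In endoderm against mesoderm all 10 genes could be tested, and 4 were called, namely *Spry1*, *Spry4*, *Etv5* and *Il17rd*. All 4 were higher in endoderm. *Spry4* and *Il17rd* were not called at Fold Change>4. With edgeR's exact test and a biological coefficient of variation taken as 0.4, none of the 10 genes was called in any of the 3 pairs, where 8.17% (endoderm, mesoderm), 7.37% (endoderm, epiblast) and 2.13% (mesoderm, epiblast) of all genes were. Of all 8867 genes tested 23.0% were called, 14.4% as higher in endoderm and 8.56% as higher in mesoderm. Counting any size of difference, 7 of the 10 genes were higher in endoderm, against 44.0% of all genes tested. Under TMM factors it was 8 of the 10, with *Spred1*, against 51.2% of all genes. For endoderm over mesoderm the 10 genes had a median log2 ratio of 0.61, against -0.10 for all genes.

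Between endoderm and epiblast 3 of the 10 genes were called, *Spry1* and *Il17rd* as higher in endoderm and *Spry2* as higher in epiblast. The background among 8843 genes was 24.6%, with 15.7% higher in endoderm and 8.94% higher in epiblast, so the share of the 10 genes was near it. Scaling by TMM factors or by the median of ratios changed the split to 4 higher in endoderm (*Spry1*, *Il17rd*, *Etv5* and *Dusp4*) and 0 higher in epiblast. Of all genes tested, 17.9% and 7.44% were then called in these directions. Scaling to the same upper quartile left *Spry1* in endoderm and *Spry2* in epiblast, 1 in each direction, beside 13.8% and 11.3% of all genes tested. The median log2 ratio of endoderm to epiblast was 0.54 for the 10 genes and -0.08 for all genes tested.

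Between mesoderm and epiblast 8 of the 10 genes could be tested, since *Spry1* and *Il17rd* had RPKM under 5 in both libraries, and 1 was called, *Etv5*, higher in epiblast. Of all 8340 genes tested 10.3% were called, 5.3% as higher in mesoderm and 5.02% as higher in epiblast. Most of the 10 genes leaned the same way at small size: 9 had a lower RPKM in mesoderm, *Spred1* by only 1.001-fold. These include the untested *Spry1* and *Il17rd*, and of the 8 tested genes only *Dusp4* was higher in mesoderm. Of all genes tested, 52.7% had a higher RPKM there, or 43.7% with libraries scaled to the same upper quartile. The median log2 ratio of mesoderm to epiblast was -0.44 for the 10 genes, tested or not, and 0.02 for all genes tested. Each library enters 2 of the 3 comparisons, so these counts share values. In all, 5 of the 10 genes were called in at least 1 pair, 3 of them in 2 pairs and none in all 3, and the FDR criterion removed 0 of the calls. Of all 9135 genes tested, 31.5% were called in at least 1 pair and 22.0% in at least 2.

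**Figure D3:**
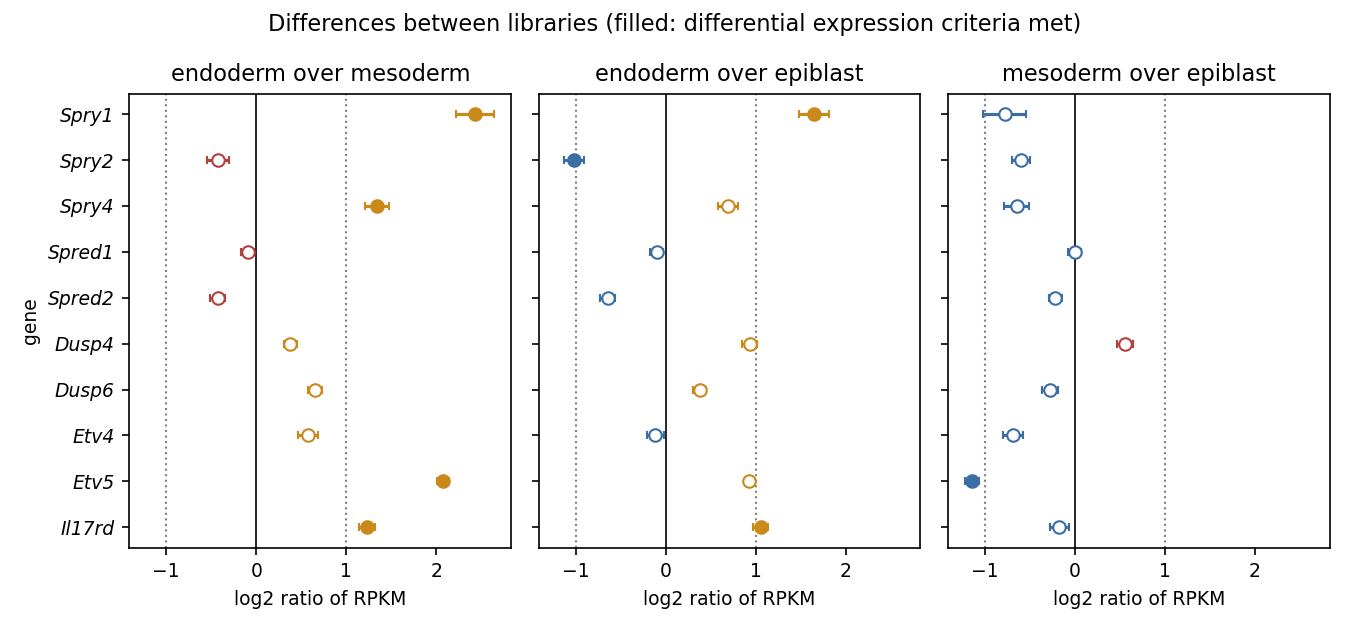
Log2 ratio of RPKM between the libraries of each pair for the 10 genes, with exact 95% counting intervals as bars, coloured by the layer with the higher value, and with dotted lines at a Fold Change of 2. Filled points met the differential expression criteria: 4 genes in the left panel, 3 in the middle and 1 on the right.

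Other genes of these families showed other orders. Of 12 further Sprouty, Spred and MAP kinase phosphatase genes, all had reads and 7 reached RPKM>5, and 4 were called in some pair. Against mesoderm, *Dusp3* (8.21, 3.24 and 2.68 RPKM in layer order) was higher in endoderm and the immediate early gene *Dusp1* (1.64, 5.15 and 4.97) higher in mesoderm. Against epiblast, *Dusp3* and *Dusp9* were higher in endoderm and *Spred3* was higher in epiblast. The median log2 ratios of the list were -0.21, -0.01 and 0.03 for endoderm over mesoderm, endoderm over epiblast and mesoderm over epiblast. For all genes tested they were -0.10, -0.08 and 0.02. The list medians, here and for the lists below, also take in genes under RPKM 5, which were not tested. In this list 6, 6 and 5 genes were tested in the 3 pairs. Its medians are thus not on the same footing as those of all genes, and no likeness is read from them. *Dusp9*, a cytoplasmic ERK phosphatase, had by far the highest RPKM of the list, at 96.5 (endoderm), 177.1 (mesoderm) and 31.7 (epiblast). It was thus 5.59-fold higher in mesoderm than in epiblast, a pair in which *Dusp6* was 1.21-fold lower. *Spred3* had an RPKM of 3.52, 1.27 and 7.28 and was 5.74-fold higher in epiblast than in mesoderm, unlike *Spred1* and *Spred2*, which differed by under 1.2-fold there. The next highest were *Dusp7*, at 6.55, 12.0 and 10.2, and *Dusp5*, at 8.67, 7.86 and 5.94, and neither was called.

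The 21 other ETS factors all had reads, and 11 reached RPKM>5. Between endoderm and mesoderm, 2 were called higher in endoderm and 3 higher in mesoderm, with a median log2 ratio of -0.50. Against epiblast 2 were called higher in endoderm and 1 higher in epiblast, and between mesoderm and epiblast 2 were higher in mesoderm and 1 in epiblast. *Etv2*, which is required for blood and vessel progenitors, had 20 endoderm, 2026 mesoderm and 97 epiblast reads, with RPKM of 0.457, 47.2 and 2.16. *Ets1*, a factor of blood and vessel cells, was also highest in mesoderm, at 9.10 against 0.987 and 1.91. *Elf3*, an epithelial factor, had RPKM of 25.6, 2.45 and 6.44. *Etv1*, the remaining PEA3-type gene, had 0.677, 4.67 and 5.61, so that epiblast exceeded endoderm, where *Etv5* was highest, by 8.29-fold. *Erf*, a repressor that ERK keeps out of the nucleus, and *Elf2*, with RPKM of 31.8, 27.7 and 26.5 and of 19.2, 28.4 and 27.8, were not called.

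The 18 further genes that ERK is known to induce split in direction. Between endoderm and mesoderm 2 were called higher in endoderm (*Epha2* and *Junb*) and 3 higher in mesoderm (*Ccnd1*, *Srf* and *Epha4*). Between endoderm and epiblast 3 were called higher in endoderm and 1 in epiblast, and between mesoderm and epiblast 4 were higher in mesoderm and 1 in epiblast. *Ccnd1*, which encodes cyclin D1, had RPKM of 25.5 (endoderm), 98.3 (mesoderm) and 74.6 (epiblast), lowest in the layer where 6 of the 10 feedback genes were highest. *Phlda1* had 38.0, 25.1 and 3.23 and was 11.8-fold higher in endoderm than in epiblast. *Epha2* had 9.77, 1.91 and 5.56, the order of *Spry1*, *Spry4* and *Etv5*, and *Junb* had 7.70, 3.49 and 1.79. *Srf*, a partner of ETS proteins, had 15.98, 35.3 and 28.4. Median log2 ratios for the 3 pairs were 0.08, 0.44 and 0.31. Of the immediate early genes, *Fos* and *Egr1* stayed under RPKM 2 in all 3 libraries, whereas *Ier2* had 23.1, 18.1 and 21.3 and *Jun* had 6.34, 8.14 and 3.67, all 4 named after their values were seen.

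Few genes of the Ras-ERK cascade itself were called. All 30 of its listed genes had reads and 25 reached RPKM>5, and 2 were called, *Gab1* and *Braf*. Of all genes tested, 31.5% were called in at least 1 pair. *Gab1*, a docking protein of receptor tyrosine kinases, had RPKM of 34.2 (endoderm), 11.6 (mesoderm) and 4.61 (epiblast) and was called in all 3 pairs. *Braf* had 7.29, 16.8 and 6.74 and was called as higher in mesoderm than in both others. The ERK gene *Mapk3* (140.2, 136.9 and 97.4) was not called, nor was *Pebp1*, an inhibitor of Raf, at 189.0, 285.2 and 319.0. The median log2 ratios of the list were -0.11, 0.12 and 0.12 for endoderm over mesoderm, endoderm over epiblast and mesoderm over epiblast.

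Most of the ligand and receptor genes upstream were lowest in endoderm, where 6 of the 10 genes were highest, but not all. Of 11 FGF ligand and receptor genes, 8 reached RPKM>5 and 7 were called in some pair, against 31.5% of all genes tested. In endoderm against mesoderm 2 were higher in endoderm (*Fgfr4* and *Fgf5*) and 4 in mesoderm (*Fgf3*, *Fgf8*, *Fgf15* and *Fgfr1*). In endoderm against epiblast 2 were higher in endoderm (*Fgfr3* and *Fgfr4*) and 3 in epiblast (*Fgf8*, *Fgf15* and *Fgfr1*), and in mesoderm against epiblast 2 were higher in mesoderm and 1 in epiblast. Median log2 ratios for the 3 pairs were -1.76, -1.69 and 0.15 over all 11 genes, of which 8, 7 and 7 were tested. *Fgfr1* had RPKM of 22.8 (endoderm), 77.1 (mesoderm) and 73.5 (epiblast). *Fgf8* had 1.77, 10.3 and 13.5, *Fgf15* had 0.557, 23.3 and 14.1, and *Fgf3* had 0.476, 23.1 and 4.99, all lowest in endoderm. *Fgfr4* stood against them with 16.2, 0.374 and 0.141, which is 114.3-fold higher in endoderm than in epiblast. *Fgf5* (6.64, 2.19 and 6.32) was also highest in endoderm, in the order of *Spry1*, *Spry4* and *Etv5*. *Fgfr3* (9.96, 15.1 and 3.46) and *Fgf10* (1.05, 3.02 and 0.154) were lowest in epiblast. Among 12 FGF co-factor genes, 10, 10 and 9 could be tested in the 3 pairs. Between endoderm and mesoderm 5 were called higher in endoderm and 1 in mesoderm. Between endoderm and epiblast 6 were higher in endoderm and 1 in epiblast. Between mesoderm and epiblast 1 was called in each direction. Medians, with untested genes included, were 0.37, 0.93 and 0.23. *Klb*, a co-receptor used with *Fgfr4*, had 2279 reads in endoderm and 0 in each other library. With the mesoderm count set to 3 reads, endoderm was 745.0-fold higher, and the lower limit of the counting interval was 605.4. *Gpc3*, a heparan sulphate proteoglycan, had 763.7, 255.5 and 80.0, *Flrt3* had 35.0, 7.35 and 9.22, *Sdc4* had 24.5, 2.66 and 5.58, and *Sdc1* alone was lowest in endoderm among those called, at 8.72, 28.8 and 33.0.

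**Figure D4:**
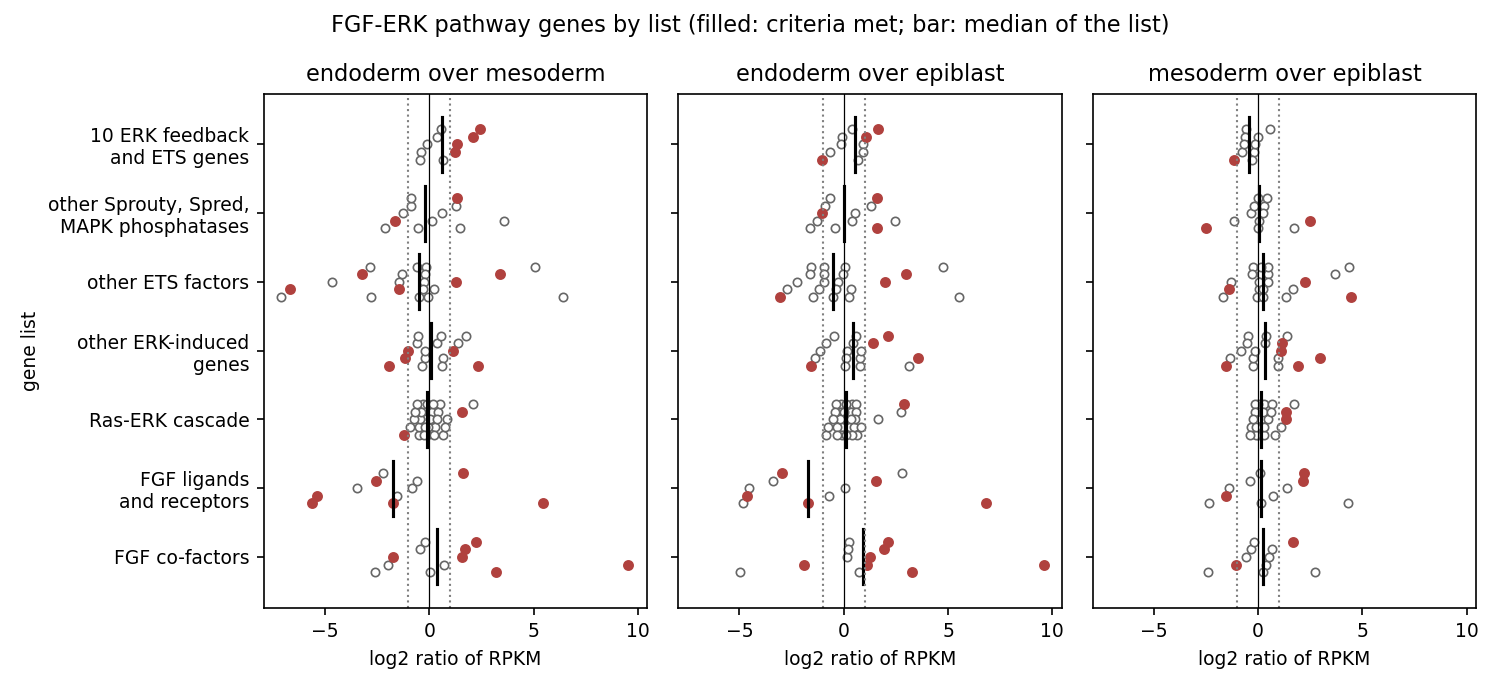
Log2 ratio of RPKM in each pair of libraries for the 10 genes and for 6 lists of pathway genes, with the list median as a bar, called genes filled and dotted lines at a Fold Change of 2. For endoderm over mesoderm the median was 0.61 for the 10 genes, all of them tested. It was -1.76 for the 11 FGF ligands and receptors, of which 8 were tested, so the gene filters differ. The point farthest right in the FGF co-factors is *Klb*, with its 0 reads outside endoderm set to 3.

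The 10 genes could be ordered by how alike their profiles were, with the distance between log2(RPKM+1) values centred on their mean over the 3 libraries. The nearest pair was *Spry2* and *Spred2*, at a distance of 0.285, followed by *Spry4* and *Il17rd* at 0.292 and *Dusp6* and *Etv4* at 0.355. Among 9125 other genes with RPKM>5 in some library, the nearest to *Spry4* were *Ralgds* (9.93, 3.99 and 6.07 RPKM in endoderm, mesoderm and epiblast), *Coro7* and *Arl6ip5*. The nearest to *Spry2* were *Alkbh7* (14.2, 18.7 and 28.0), *Rimklb* and *Ror2*, to *Dusp6* *Abhd14a*, *Ndufb4* and *Vps18*, and to *Etv4* *Gal*, *Dalrd3* and *Rab4b*. With 3 libraries many genes lie this near: within a distance of 0.1 there were 62 for *Dusp6*, 25 for *Spry2*, 20 for *Etv4* and 16 for *Spry4*.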

How the data were processed

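Total RNA of dissected endoderm, mesoderm and epiblast was sequenced by the authors (Illumina HiSeq, paired ends), giving 1 library for each germ layer. For each gene the authors deposited its length, its read count (unique reads), its RPKM and the percent of the length with reads (coverage). RPKM was recomputed from counts, lengths and totals with a largest relative difference of 2.03e-07. The submitters' processing notes name TopHat, mm10 and mm9, and the paper names TopHat and GRCm38 for splicing. The aligner, annotation and counter of the gene table are not given in the sources used here. Gene positions are from GENCODE M21 (GRCm38) and promoter windows from RefSeq (GRCm38.p6).

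RPKM values were used as deposited. A gene missing from a library's table counted as 0 reads there, and a library with 3 reads or fewer was set to 3 reads for a fold. The call of a pair needed RPKM>5 in either library, Fold Change>2 and FDR<0.001 from the exact test after Audic and Claverie, two-sided, adjusted by Benjamini-Hochberg over the genes that had reads in the pair. The quasi-likelihood test of edgeR could not be fitted, as a lone library per layer leaves no dispersion to estimate. Count intervals are exact Poisson and ratio intervals are Clopper-Pearson, at 95%. Alternatives were RPKM>1, RPKM>10 or no minimum, Fold Change>1.5 or >4, a pseudocount of 0.1 or 1, TMM factors, the same upper quartile or the median of ratios as library scaling, calls without the FDR criterion, and the exact test of edgeR at an FDR below 0.05, taking the biological coefficient of variation as 0.2 or 0.4.

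The 10 genes and the pathway lists were chosen with earlier results of these data known. Of each pathway list the text names the up to 3 genes with the highest RPKM and the up to 4 called genes with the largest fold. *Epha4*, *Fos*, *Egr1*, *Ier2*, *Jun*, *Fgf5*, *Fgf10*, *Fgfr3* and *Dusp16* were named after their values were seen. The motifs, the printed promoters and the ratios between paralogues were also chosen then. Some genes of these lists are not reported here by name. The genes with profiles like *Dusp6*, *Spry4*, *Spry2* and *Etv4* are the 3 nearest each. *Foxf1*, *Hras* and *Spi1* were matched to *Foxf1a*, *Hras1* and *Sfpi1* through older symbols. Computation ran in R 4.3.3 with edgeR 4.0.16 and in Python 3.11.15 with SciPy 1.17.1, numpy 2.4.6, pandas 2.3.3 and matplotlib 3.10.9. Alternative splicing, the microarray and the qPCR were not analysed here.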

Additional observations from a re-analysis of the deposited data

How the results depend on the processing

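No paired analysis was possible because there is 1 library per germ layer, and for the same reason no replicate could be left out. Of 39 recomputed counts of called genes among the 10, 30 stayed within 1.5 times of the value as reported. Fold Change>4 gave 2 genes between endoderm and mesoderm (*Spry1* and *Etv5*), 0 in endoderm against epiblast and 0 in mesoderm against epiblast. Of all genes tested, 10.6%, 10.2% and 4.0% were called at that limit. Fold Change>1.5 gave 7 and 4 in the pairs with epiblast, where 44.3% and 18.7% of all genes tested were called. A pseudocount of 1 gave 1 between endoderm and epiblast, *Spry1*, beside 22.2% of all genes tested. The exact test of edgeR called 0 in each of the 3 pairs with a biological coefficient of variation taken as 0.4. At 0.2 it called 4, 2 and 1, without *Spry2*, beside 22.1%, 23.8% and 9.04% of all genes tested. With RPKM>10 *Spry4* was no longer called.

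The folds of the 10 genes were recomputed under 5 alternatives. Of 150 values, 107 stayed within their counting interval, and 4, all of *Spred1*, changed sign. TMM factors shifted the log2 ratio of endoderm to mesoderm by 0.11 and that of endoderm to epiblast by 0.11 for every gene, and the median of ratios by 0.11 in each, while the same upper quartile moved them by -0.07 and -0.13. With TMM factors, *Etv5* and *Dusp4* were called between endoderm and epiblast and *Spry2* was not, and with the same upper quartile *Il17rd* was not called there.

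Over all genes, the number called between endoderm and mesoderm (2038) was 3375 with RPKM>1, 4676 without a minimum, 3539 and 936 with Fold Change>1.5 and >4, and 724 with a coefficient of 0.4. Between endoderm and epiblast (2176) these were 3561, 4854, 3920, 898 and 652, and between mesoderm and epiblast (861) they were 1841, 2769, 1560, 334 and 178, with 525 for RPKM>10. The depth of 40.8 M to 42.7 M reads sets narrow counting intervals, and the spread between embryos or dissections is not measured by them.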
